A study of Homo sapiens with 4 samples.

Results

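The genes described are 9 symbols of the tissue factor and plasminogen activator system, F3, TFPI, TFPI2, THBD, PLAU, PLAUR, PLAT, SERPINE2 and SERPINB2, taken by name from the 24424 gene symbols that each of the 4 count tables lists. The symbols were chosen by what their products do and not by a threshold on the counts, but with earlier results of these data known. All 9 passed the rule on low values described further down. The cells were BEAS-2B, an established cell line grown from human bronchial epithelium, and 1 RNA library was sequenced for each of 4 conditions. The question addressed was how a peptide built on a PDZ domain of the tight junction protein ZO-1 alters the response to lipopolysaccharide (LPS), a bacterial cell wall component. Every library came from the same line, labelled as wild type.

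Control cells received neither LPS nor peptide. LPS cells received LPS for 2 hr. WT PDZ+LPS cells received the wild-type PDZ peptide for 24 hr and then LPS for 2 hr, and mut PDZ+LPS cells received a mutant form of the peptide, with a glycine pair replaced by alanine, on the same schedule. Both peptides carry a Tat stretch for entry into cells. The labels give no dose of LPS or peptide, and no library had peptide without LPS, so the effect of a peptide can be read only on top of LPS.

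As background, coagulation in tissues starts when tissue factor, the product of F3, binds factor VIIa on a cell surface, and TFPI blocks that complex together with factor Xa. Thrombomodulin, the product of THBD, turns thrombin from a clotting enzyme into an activator of protein C. Fibrin is removed by plasmin, which urokinase (PLAU) and tissue-type plasminogen activator (PLAT) release from plasminogen, while serpins such as SERPINE2 and SERPINB2 inhibit the activators. Airway epithelium makes several of these proteins, and inflammatory stimuli are known to raise tissue factor and urokinase in many cell types.

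The promoter sequences are shown because transcription after LPS runs largely through AP-1 and NF-kappaB, so the letters that these factors are known to prefer can be looked for beside the counts. Of the 9 genes, 7 matched an entry in the RefSeq table, with 9 windows of 250 bases directly before a start site in GRCh38.p14. THBD and PLAT had no entry. The AP-1 letters TGANTCA, which are their own reverse complement apart from the middle base, were searched on both strands. So was the kappaB consensus, taken as GGGRNNYYCC, where N is any base, R is A or G and Y is C or T. Capitals mark each match, and sites that depart from these letters are not marked. The AP-1 letters were in the windows of 4 genes, F3, TFPI2, PLAUR and SERPINB2, and the kappaB consensus was in the window of 1 gene, TFPI2. The TFPI window, which had neither, is printed beside them because TFPI was the gene with no 2-fold difference between any libraries. Each sequence is given 5′ to 3′ on the strand of its gene.
F3, chr1:94541760-94542009, minus strand: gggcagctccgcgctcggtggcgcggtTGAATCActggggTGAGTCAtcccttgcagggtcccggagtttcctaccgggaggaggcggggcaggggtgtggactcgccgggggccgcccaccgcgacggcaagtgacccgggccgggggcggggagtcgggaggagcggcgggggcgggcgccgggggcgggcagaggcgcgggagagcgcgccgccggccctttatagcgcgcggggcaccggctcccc
TFPI2, chr7:93890754-93891003, minus strand: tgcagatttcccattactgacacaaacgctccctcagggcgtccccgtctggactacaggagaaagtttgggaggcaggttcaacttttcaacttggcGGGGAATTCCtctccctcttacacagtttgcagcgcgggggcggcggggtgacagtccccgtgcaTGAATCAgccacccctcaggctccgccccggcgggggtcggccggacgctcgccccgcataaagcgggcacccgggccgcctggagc
PLAUR, chr19:43670170-43670419, minus strand: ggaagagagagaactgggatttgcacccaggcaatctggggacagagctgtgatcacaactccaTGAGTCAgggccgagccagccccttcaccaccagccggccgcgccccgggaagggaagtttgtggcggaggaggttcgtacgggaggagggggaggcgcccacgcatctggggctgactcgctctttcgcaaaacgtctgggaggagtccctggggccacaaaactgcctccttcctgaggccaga
SERPINB2, chr18:63887455-63887704, plus strand: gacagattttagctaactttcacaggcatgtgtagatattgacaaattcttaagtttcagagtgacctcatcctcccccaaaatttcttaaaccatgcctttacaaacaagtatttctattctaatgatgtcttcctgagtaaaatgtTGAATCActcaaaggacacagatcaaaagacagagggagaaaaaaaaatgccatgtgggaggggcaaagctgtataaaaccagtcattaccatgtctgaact
TFPI, chr2:187554436-187554685, minus strand: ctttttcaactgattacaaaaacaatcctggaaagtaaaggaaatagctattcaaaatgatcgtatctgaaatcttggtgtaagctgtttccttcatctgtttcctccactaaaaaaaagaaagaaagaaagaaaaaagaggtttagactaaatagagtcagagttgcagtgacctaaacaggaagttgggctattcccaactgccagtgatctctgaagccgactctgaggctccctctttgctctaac

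The F3 window held AP-1 letters at 2 places, 223 to 217 and 210 to 204 bases before the start site. The other AP-1 matches lay 87 to 81 bases before the start in TFPI2, 186 to 180 in PLAUR and 102 to 96 in SERPINB2, and the kappaB match of TFPI2 lay at 152 to 143, with no overlap between matches. Among 35116 RefSeq windows of the same length, 6.57% held the AP-1 letters and 9.96% the kappaB consensus. The windows of PLAU and SERPINE2, 2 for each gene, held neither. Their normalized read counts were 6.48-fold and 10.7-fold higher in LPS than in Control. PLAUR, with AP-1 letters, was 1.77-fold higher. A match is a description of the letters in 250 bases and says nothing of binding in these cells. A window without a match may still hold sites with other letters.

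The counts summed to between 19682929 in mut PDZ+LPS and 25155647 in LPS. They were divided by geometric size factors (1.15 for Control and, under LPS, 1.06 without peptide, 0.990 with WT PDZ and 0.851 with mut PDZ) to give normalized read counts. A gene passed the rule on low values with at least 16 normalized read counts in at least 1 of the libraries compared, and was called higher or lower at a difference of at least 2-fold, the words rose and fell being used for called genes alone. No difference has a replicate check, no p-value is given, and the 95% intervals (exact Clopper-Pearson) compare libraries and cover counting error only. Log2 fold changes were taken after adding 1 normalized read count. LPS-treated libraries differed from Control in the known LPS target NFKBIA, whose normalized read count was 1471 in Control and, under LPS, 11594 without peptide, 10599 after WT PDZ and 14814 after mut PDZ, and TNFAIP3, CXCL8, ICAM1 and CCL20 had log2 fold changes of 4.37, 4.84, 3.60 and 8.34 in LPS/Control. All 9 epithelial markers examined had a mean of at least 16 normalized read counts. Their means ran from 39.0 for KRT14, 43.0 for EPCAM and 69.6 for TP63 to 42917 for KRT7. The same mark was passed by 1 of 5 endothelial, 2 of 5 leukocyte, 1 of 5 platelet and 1 of 5 fibroblast markers. The endothelial markers summed to between 25.8 and 31.3 and the platelet markers to between 36.4 and 54.0. The leukocyte marker PTPRC and the fibroblast marker COL3A1 had 0 counts in every library, with the leukocyte sum at 731 to 897 from CD14 and CD68 and the fibroblast sum at 300.3 in Control and 432 to 447 in the LPS-treated libraries from COL1A1. The mut PDZ+LPS library carried a trend with transcript length, in that Spearman's rho between length and log2 fold change over 12119 genes (genes are no replicates) was -0.605 for mut PDZ+LPS/LPS, against 0.0750 for WT PDZ+LPS/LPS. For that reason log2 fold changes of the 9 genes that involve mut PDZ+LPS are also given after a lowess correction for the length and GC content of transcripts, called the length correction from here on.

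With LPS, 7 of the 9 genes rose at least 2-fold, F3, TFPI2, THBD, PLAU, PLAT, SERPINE2 and SERPINB2, and none fell. Among the 13277 genes that passed the rule in LPS/Control, 3.46% were called higher and 1.41% lower. The rise covered the initiator of coagulation, the anticoagulant receptor thrombomodulin, both plasminogen activators and both serpins, while TFPI lay within 1.08-fold across all 4 libraries. The median log2 fold change of the 9 genes was 1.51, against -0.0023 over all genes tested. Because the 9 genes were picked with earlier results of these data known, the contrast with all genes is a description. In bulk RNA, a change in the number of cells that express a gene and a change in RNA per cell cannot be told apart.

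**Figure D1:**
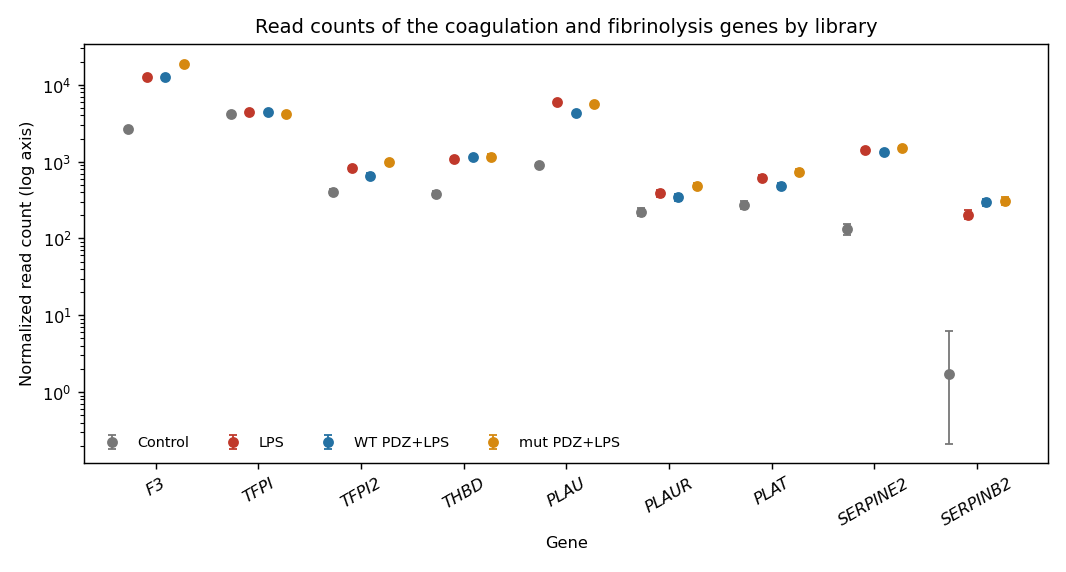
Normalized read count (log axis) of each gene in the 4 libraries (colours name the conditions), with 1 point per library and bars for the 95% counting interval. Control is the lowest point for 8 of the 9 genes, TFPI lies level, and SERPINB2 in Control rests on 2 counts.

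F3 encodes tissue factor, the receptor that starts the clotting cascade. Its normalized read count was 2638 in Control and, under LPS, 12730.2 without peptide, 12621 after WT PDZ and 18929 after mut PDZ. The 3 LPS-treated libraries lay well above Control, LPS and WT PDZ+LPS lay within counting error of each other, and mut PDZ+LPS was the highest. The rise was 4.83-fold in LPS/Control (log2 fold change 2.27, 95% interval 2.21 to 2.33), and F3 ranked 140 from the top among the 13277 genes. It was 4.78-fold in WT PDZ+LPS/Control and 7.18-fold in mut PDZ+LPS/Control.

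TFPI encodes the Kunitz-type inhibitor of the tissue factor and factor VIIa complex. Its normalized read count was 4198 in Control and, under LPS, 4416 without peptide, 4481 after WT PDZ and 4168 after mut PDZ. The values lay within 1.08-fold of each other, with LPS/Control at a log2 fold change of 0.073 (0.015 to 0.13) and mut PDZ+LPS/Control at -0.010 (-0.073 to 0.053). The sign of so small a difference depended on the scaling, since total-count scaling gave -0.058 in LPS/Control and -0.038 in WT PDZ+LPS/Control. TFPI was the one gene of the 9 with no call against Control in any comparison.

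TFPI2 encodes a related Kunitz-type inhibitor that acts on plasmin and other serine proteases in the extracellular matrix. The normalized read count of TFPI2 was 402 in Control and, under LPS, 819 without peptide, 659 after WT PDZ and 982 after mut PDZ. All 4 libraries were separated by more than counting error, in the order mut PDZ+LPS, LPS, WT PDZ+LPS and Control. The log2 fold change was 1.03 (0.86 to 1.19) in LPS/Control, just past the 2-fold mark, and total-count scaling (0.89) and upper-quartile scaling (0.96) left it below. TFPI2 rose in mut PDZ+LPS/Control (1.29, 1.12 to 1.46) and stayed under 2-fold in WT PDZ+LPS/Control at 0.71 (0.54 to 0.89).

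THBD, on chromosome 20, encodes thrombomodulin, the thrombin receptor that starts protein C activation. Its normalized read count was 383 in Control and, under LPS, 1092 without peptide, 1133 after WT PDZ and 1166 after mut PDZ. The 3 LPS-treated libraries lay within counting error of their neighbours, at 1.07-fold from lowest to highest, and all stood above Control. The log2 fold change was 1.51 (1.35 to 1.67) in LPS/Control, with 1.56 for WT PDZ+LPS/Control and 1.60 for mut PDZ+LPS/Control.

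PLAU, on chromosome 10, encodes urokinase, the activator that works on plasminogen at the cell surface. Normalized read counts of PLAU were 910.3 in Control and, under LPS, 5898 without peptide, 4280.5 after WT PDZ and 5654 after mut PDZ. LPS held the highest value, which was so for no other of the 9 genes, and WT PDZ+LPS was the lowest of the LPS-treated libraries. That first place depended on the scaling, since mut PDZ+LPS/LPS had a log2 fold change of -0.061 and upper-quartile scaling gave 0.0035. The rise was 6.48-fold in LPS/Control (log2 fold change 2.69, 2.60 to 2.79), 4.70-fold in WT PDZ+LPS/Control and 6.21-fold in mut PDZ+LPS/Control. The symbol C10orf55 overlaps PLAU on the opposite strand, and the strand used in counting was not given in the sources used here, so reads of the pair cannot be told apart. Counts of C10orf55 were 19 in Control and, under LPS, 42 without peptide, 17 after WT PDZ and 38 after mut PDZ, few beside the 1046 to 6270 counts of PLAU, and it was called lower in WT PDZ+LPS/LPS at -1.16 (-2.11 to -0.36). It was called higher in LPS/Control at 1.21 (0.44 to 2.12), as well as for mut PDZ+LPS against Control (1.38) and against WT PDZ+LPS (1.33).

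PLAT encodes tissue-type plasminogen activator, which acts mainly on fibrin-bound plasminogen. PLAT had normalized read counts of 273 in Control and, under LPS, 616 without peptide, 482 after WT PDZ and 736 after mut PDZ. The 4 libraries were in the same order as for TFPI2, each apart from the next by more than counting error. PLAT rose in LPS/Control with a log2 fold change of 1.17 (0.98 to 1.37) and in mut PDZ+LPS/Control with 1.43 (1.23 to 1.63). In WT PDZ+LPS/Control the value was 0.82 (0.61 to 1.03), short of the 2-fold mark.

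PLAUR encodes the urokinase receptor, which holds urokinase on the cell surface. PLAUR had normalized read counts of 219 in Control and, under LPS, 388 without peptide, 343 after WT PDZ and 481 after mut PDZ. Control was again the lowest, and LPS and WT PDZ+LPS lay within counting error of each other. The log2 fold change was 0.82 (0.59 to 1.05) in LPS/Control and 0.64 (0.41 to 0.89) in WT PDZ+LPS/Control, both short of 2-fold. In mut PDZ+LPS/Control it was 1.13 (0.90 to 1.36), a call that ended at 0.90 with the length correction; PLAUR has the shortest transcript of the 9 genes, at 1610 bases.

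SERPINE2, on chromosome 2, encodes protease nexin-1, an inhibitor of thrombin, urokinase and plasmin. Normalized read counts of SERPINE2 were 132 in Control and, under LPS, 1409 without peptide, 1324 after WT PDZ and 1493 after mut PDZ. The 3 LPS-treated libraries lay close together, at 1.13-fold from lowest to highest, and far above Control. The rise was 10.7-fold in LPS/Control (log2 fold change 3.40, 3.17 to 3.66), 10.01-fold in WT PDZ+LPS/Control and 11.3-fold in mut PDZ+LPS/Control.

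SERPINB2 encodes the clade B inhibitor of plasminogen activators that cells keep largely inside. Its counts were 2 in Control and, under LPS, 216 without peptide, 291 after WT PDZ and 265 after mut PDZ, which made normalized read counts of 1.74 in Control and, under LPS, 203 without peptide, 294 after WT PDZ and 311 after mut PDZ. Control was far below the rule on low values, the LPS-treated libraries lay above it, and both peptide-treated libraries stood above LPS. The ratio was 116.7-fold in LPS/Control, with a counting interval of 31.9 to 970.0 that reflects the 2 counts of Control. With 1 normalized read count added, the log2 fold change was 6.22, and with 5 added it was 4.95, so its size depends on that choice. SERPINB2 ranked 14 from the top in LPS/Control, SERPINE2 62, PLAU 108, F3 140 and THBD 262.

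**Figure D2:**
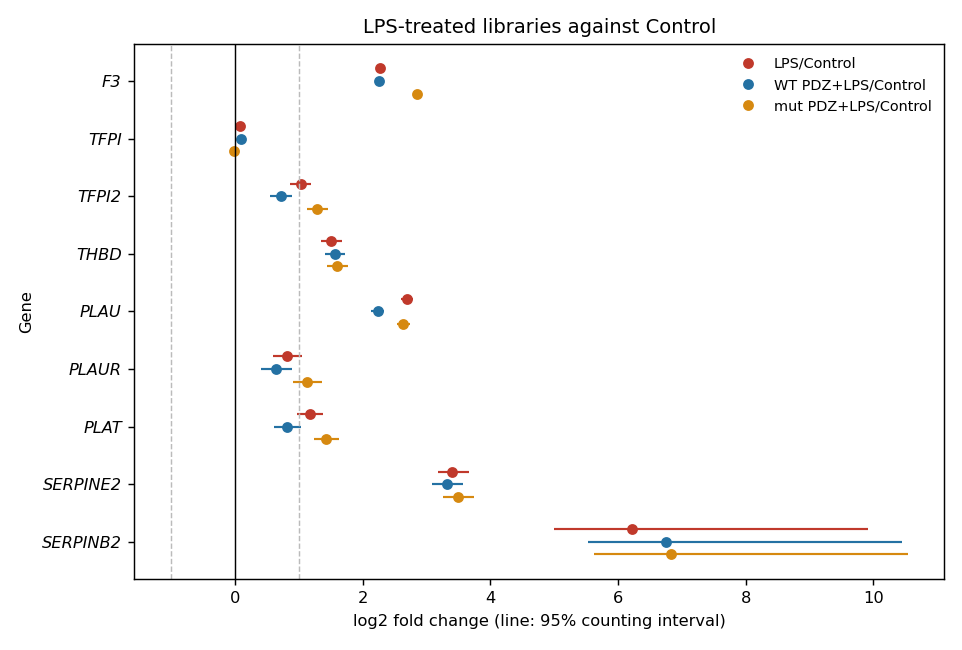
Log2 fold change of each gene in the 3 LPS-treated libraries against Control (points) with 95% counting intervals (lines) and dashed lines at 2-fold. Points for TFPI lie near 0, those of F3, PLAU, SERPINE2 and SERPINB2 lie past 2 in all 3 comparisons, and those of TFPI2, PLAUR and PLAT lie around 1.

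With peptide, 5 of the 9 genes were called higher in WT PDZ+LPS/Control, namely F3, THBD, PLAU, SERPINE2 and SERPINB2, and none was called lower, beside 3.28% and 1.42% of the 13284 genes tested. In mut PDZ+LPS/Control 8 genes were called higher, all but TFPI, and none lower, beside 5.13% and 2.96% of 13434 genes. The median over the 9 genes was 1.56 and 1.60 in the respective comparisons, and 0.0093 and -0.014 over all genes tested. After the length correction the values of mut PDZ+LPS/Control were 2.85 for F3, 0.11 for TFPI, 1.29 for TFPI2, 1.72 for THBD, 2.61 for PLAU, 1.40 for PLAT, 3.53 for SERPINE2 and 6.81 for SERPINB2, so PLAUR was the gene whose call it ended. The 3 comparisons share the Control library, so they are given side by side and not as repeats of each other.

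Set against LPS alone, no gene of the 9 was called higher or lower with either peptide. WT PDZ+LPS/LPS had 0.635% of 13236 genes called higher and 0.733% called lower, and mut PDZ+LPS/LPS had 2.05% and 1.9% of 13378 genes. With the wild-type peptide, 3 genes had values below LPS by more than counting error, both plasminogen activators and TFPI2. PLAU had a log2 fold change of -0.46 (-0.52 to -0.41), PLAT of -0.35 (-0.53 to -0.18) and TFPI2 of -0.31 (-0.46 to -0.17). PLAUR had -0.17 (-0.39 to 0.036) and SERPINE2 had -0.090 (-0.20 to 0.018), intervals that include 0. F3 had -0.012 (-0.048 to 0.023), TFPI 0.021 (-0.038 to 0.081) and THBD 0.053 (-0.067 to 0.17), the narrowest interval being that of F3.

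SERPINB2 was the single gene of the 9 above LPS by more than counting error in WT PDZ+LPS, at 0.53 (0.27 to 0.79), which is 1.45-fold. The reference genes GAPDH, ACTB, TBP, HPRT1, PPIA, GUSB and SDHA spanned -0.071 to 0.16 in the same comparison, with a median of 0.0017. The values of PLAU, PLAT, TFPI2 and SERPINB2 lay outside that span, as did those of PLAUR and SERPINE2. Values below LPS were not particular to these genes. In the same comparison NFKBIA, TNFAIP3, CXCL8, ICAM1 and CCL20 had -0.13, -0.059, -0.11, -0.33 and -0.37. Whether these differences between libraries would return in further cultures was not tested.

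With the mutant peptide, 5 genes had intervals above 0 against LPS and 2 below. F3 had a log2 fold change of 0.57 (0.54 to 0.61), which is 1.49-fold, and SERPINB2 of 0.61 (0.35 to 0.88), which is 1.53-fold. After the length correction both stood at 0.53. TFPI2 had 0.26 (0.12 to 0.40) and PLAT 0.26 (0.095 to 0.42), with corrected values of 0.23 and 0.20. PLAUR, at 0.31 (0.11 to 0.51), came to 0.019 after the correction. THBD had 0.094 (-0.030 to 0.22) and SERPINE2 0.084 (-0.025 to 0.19), intervals that include 0, with corrected values of 0.23 and 0.097. PLAU had -0.061 (-0.12 to -0.0065) and TFPI -0.083 (-0.15 to -0.020), and upper-quartile scaling turned the sign of PLAU to 0.0035 while the correction took TFPI to 0.035. The reference genes spanned -0.056 to 0.39 in mut PDZ+LPS/LPS with a median of 0.30, so among the uncorrected values only those of F3 and SERPINB2 lay above their span.

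**Figure D3:**
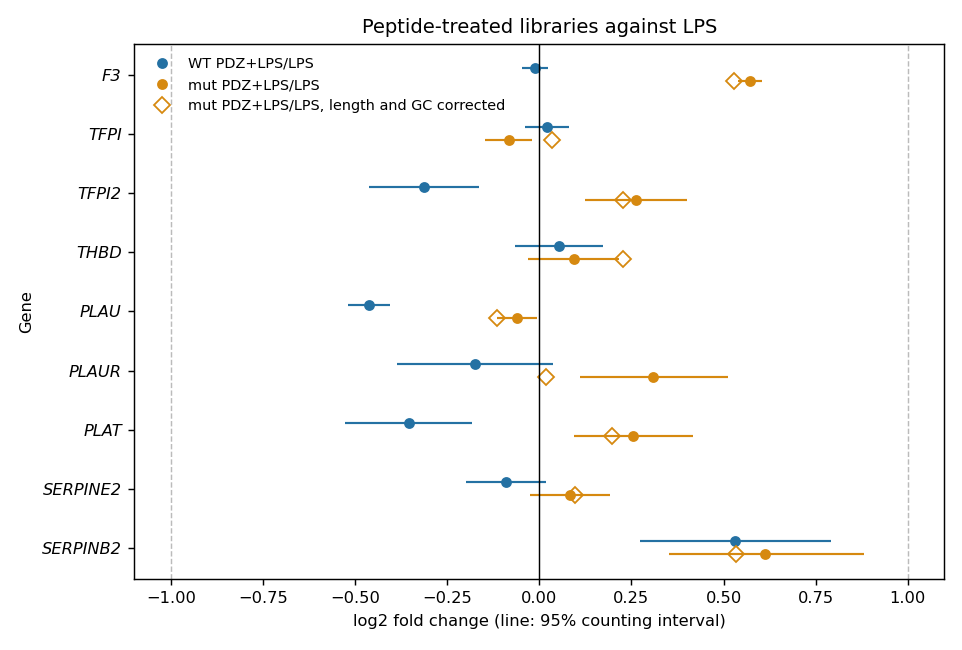
Log2 fold change of each gene in WT PDZ+LPS and mut PDZ+LPS against LPS (filled points, 95% counting intervals as lines), with open diamonds for mut PDZ+LPS/LPS after the length correction and dashed lines at 2-fold. No point reaches 2-fold, SERPINB2 lies near 0.53 to 0.61 with both peptides, PLAU, PLAT and TFPI2 lie lowest with the wild-type peptide, and F3 lies near 0 with the wild-type peptide and at 0.57 with the mutant.

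The peptides differ by the exchange of glycines for alanines and were given for the same times, and mut PDZ+LPS/WT PDZ+LPS sets them side by side. The length trend was present there too, with a Spearman's rho of -0.614 between length and log2 fold change. A difference between the peptides cannot be told apart from this trend of the 1 mut PDZ+LPS library. No gene of the 9 was called higher or lower, beside 2.12% and 2.14% of 13372 genes, and with 1 library each no test of a difference was possible. The values were 0.61 (0.44 to 0.79) for PLAT, 0.58 (0.55 to 0.62) for F3, 0.57 (0.43 to 0.72) for TFPI2, 0.48 (0.27 to 0.70) for PLAUR and 0.40 (0.34 to 0.46) for PLAU. After the correction they were 0.53, 0.54, 0.55, 0.17 and 0.33 in the same order. SERPINE2 had 0.17 (0.061 to 0.29), with 0.18 after the correction. THBD at 0.041 (-0.084 to 0.17) and SERPINB2 at 0.083 (-0.16 to 0.33) had intervals that include 0, with corrected values of 0.16 and 0.011, and TFPI was at -0.10 (-0.17 to -0.041), or 0.042 after the correction. The reference genes spanned -0.11 to 0.36 before the correction and ran from -0.24 (TBP) to 0.30 (PPIA) after it.

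Levels of different genes were compared per kilobase of transcript. In Control, F3 (1153 normalized read counts per kb) and TFPI (1080.4) stood highest, followed by PLAU at 342, and SERPINB2 was the lowest at 0.808. In LPS the order became F3 at 5566, PLAU at 2219, TFPI at 1137 and SERPINE2 at 549, while TFPI2, THBD, PLAUR, PLAT and SERPINB2 lay between 335 and 94.3. SERPINE2 moved from below PLAT in Control (51.5 against 101) to above it in LPS (549 against 228).

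Because both genes of a pair were counted in the same library, their ratio does not depend on the size factors. The per-kb ratio of F3 to its inhibitor TFPI was 1.07 (1.02 to 1.12) in Control, 4.90 (4.74 to 5.06) in LPS, 4.78 (4.62 to 4.95) in WT PDZ+LPS and 7.72 (7.44 to 8.003) in mut PDZ+LPS. Reads per kb of tissue factor went from near parity with those of TFPI to several times as many in each LPS-treated library. The ratios given here for mut PDZ+LPS, of this pair and the others, are not corrected and carry the length trend, and with the length correction F3 stood at 0.53 and TFPI at 0.035 against LPS. The ratio of urokinase to tissue-type activator, PLAU to PLAT, was 3.39 (2.99 to 3.86), 9.75 (8.99 to 10.6), 9.05 (8.23 to 9.97) and 7.83 (7.20 to 8.52), listed by library as before. PLAU to its receptor PLAUR was 2.51 (2.19 to 2.90), 9.22 (8.34 to 10.2), 7.55 (6.76 to 8.46) and 7.13 (6.44 to 7.90). Both ratios were lowest in Control and highest in LPS.

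The ratio of PLAU to its inhibitor SERPINE2 went the other way, from 6.65 (5.61 to 7.94) in Control to 4.05 (3.82 to 4.28) under LPS without peptide, 3.13 (2.94 to 3.33) after WT PDZ and 3.66 (3.44 to 3.90) after mut PDZ. The ratio of F3 to THBD, the initiator against the anticoagulant receptor, was 12.4 in Control and, under LPS, 20.9 without peptide, 20.01 after WT PDZ and 29.2 after mut PDZ. TFPI to TFPI2 was 6.57 in Control and, under LPS, 3.39 without peptide, 4.28 after WT PDZ and 2.67 after mut PDZ.

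**Figure D4:**
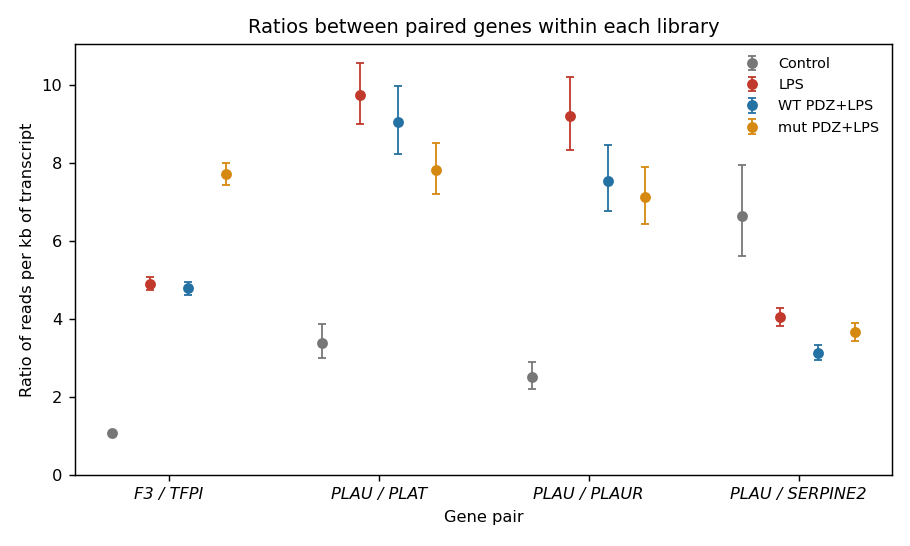
Ratio of reads per kb of transcript between paired genes within each library, with 1 point per library and bars for the 95% counting interval. F3/TFPI runs from 1.07 in Control to 7.72 in mut PDZ+LPS, PLAU/PLAT and PLAU/PLAUR are lowest in Control, and PLAU/SERPINE2 is highest in Control.

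The wider system was described with 61 genes in 7 lists, of which 53 had a count in some library. In LPS/Control 32 of them passed the rule on low values, with a median of 0.073. Of these, 2 were called higher and 1 lower, beside 3.46% and 1.41% of all genes tested. The contrast with the 9 genes above, which were picked with results of these data known, is a description. None of the 5 coagulation factors that passed was called higher. FGB, which encodes the fibrinogen beta chain, fell by 1.55 on the log2 scale in LPS/Control, from 91 counts to 28. FGA, the alpha chain, had -0.84 (-1.26 to -0.45) and FGG, the gamma chain, 0.029 (-0.13 to 0.19), the interval of FGG lying apart from both others. Factor VIII (F8) had -0.30 (-0.68 to 0.073) and factor XII (F12) -0.047 (-0.76 to 0.66). The prothrombin gene F2 had 3 counts or fewer in every library.

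Of the 4 anticoagulant genes that passed in LPS/Control none was called. PROCR, the endothelial protein C receptor, which works beside thrombomodulin, had -0.39 (-0.55 to -0.23), PROS1, protein S, had 0.079 (-0.021 to 0.18), ANXA5, an annexin that covers procoagulant phospholipid, had 0.44 (0.40 to 0.48), and SERPINA5, the protein C inhibitor, had 0.86 (-0.17 to 2.08) from 21 counts against 12. The protease-activated receptors, which sense thrombin and other proteases, had 2 genes that passed and none called, with F2RL1 at -0.54 (-0.92 to -0.19) and F2R at -0.16 (-0.34 to 0.029). None of the 6 genes for plasminogen, its receptors and inhibitors that passed was called, and the plasminogen receptor parts S100A10 and ANXA2 had -0.0091 and 0.16. PLGRKT and ENO1, also plasminogen receptors, had -0.20 and -0.037, and the inhibitors SERPINF2 and SERPINI1 had -0.63 (-1.73 to 0.34) and 0.58 (-0.18 to 1.40). None of the 5 urokinase receptor partners and clearance genes that passed was called either. The scavenger receptor LRP1 had 0.17 and the integrin subunits ITGAV, ITGB1 and ITGB3 had 0.35, 0.066 and 0.38. The highest of the list was IGF2R at 0.45 (0.41 to 0.49). Among the membrane serine proteases and their Kunitz inhibitors 3 passed and none was called, matriptase (ST14) at 0.45 (-0.11 to 1.05) and its inhibitors SPINT1 and SPINT2 at 0.24 and -0.079.

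The other clade B serpins, relatives of SERPINB2, held both genes called higher in LPS/Control. SERPINB3, a cysteine protease inhibitor of squamous epithelium, had counts of 519 in Control and, under LPS, 1331 without peptide, 1844 after WT PDZ and 1421 after mut PDZ. Its log2 fold change was 1.47 (1.32 to 1.62) in LPS/Control and 0.57 (0.47 to 0.68) in WT PDZ+LPS/LPS. Its near-identical neighbour SERPINB4 had counts of 163 in Control and, under LPS, 599 without peptide, 841 after WT PDZ and 668 after mut PDZ, with log2 fold changes of 1.98 (1.74 to 2.25) and 0.59 (0.44 to 0.75). Reads of these 2 genes may have been split between them, so they cannot be taken as separate observations. Chromosome 18 holds SERPINB2, SERPINB3, SERPINB4 and SERPINB8, and also SERPINB5 and SERPINB7. It also holds SERPINB10, SERPINB11, SERPINB12 and SERPINB13, which had 3 counts or fewer in every library. SERPINB8 had 0.84 (0.71 to 0.97) in LPS/Control and 0.086 (-0.027 to 0.20) in WT PDZ+LPS/LPS. SERPINB5 went the other way in LPS/Control, at -0.31 (-0.69 to 0.055), and SERPINB7 did not pass the rule there. SERPINB1, SERPINB6 and SERPINB9, on chromosome 6, had 0.21, 0.023 and 0.51 in LPS/Control. SERPINB2, SERPINB3 and SERPINB4 stood above LPS by more than counting error with either peptide, SERPINB3 at 0.41 and SERPINB4 at 0.48 in mut PDZ+LPS/LPS, or 0.25 and 0.29 after the correction.

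Against Control with peptide, WT PDZ+LPS had 3 of 33 wider genes called higher and 1 lower, beside 3.28% and 1.42% of all genes tested. For mut PDZ+LPS it was 3 of 32 and 0, beside 5.13% and 2.96%. SERPINB3 and SERPINB4 were among those called in both, with SERPINB7 (26 counts against 5) in the first and HPN (18 counts against 4) in the second, and FGB was the lower one at -1.41. In WT PDZ+LPS/LPS none of 32 was called higher or lower, beside 0.635% and 0.733% of all genes tested. In mut PDZ+LPS/LPS 2 of 33 were called higher and 1 lower, beside 2.05% and 1.9% of all genes tested. FGB had 1.04 (0.36 to 1.80) from 47 counts against 28, and HPN had 1.55 from 18 counts against 7. IGF2R, a receptor that binds the urokinase receptor, fell by 1.05. In mut PDZ+LPS/WT PDZ+LPS none of 34 was called higher and 2 were called lower, beside 2.12% and 2.14% of all genes tested. IGF2R fell by 1.12, and SERPINB7 had -1.56 (-3.12 to -0.43) from 7 counts against 26. Calls this few are given as a description. IGF2R has a long transcript, and after the correction its values were -0.42 and -0.45, while FGB had 0.93 in mut PDZ+LPS/LPS and neither SERPINB7 nor HPN had enough reads to be corrected. The medians over the lists were 0.12, -0.056, 0.00052, -0.076 and -0.13 in the order of these comparisons.

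**Figure D5:**
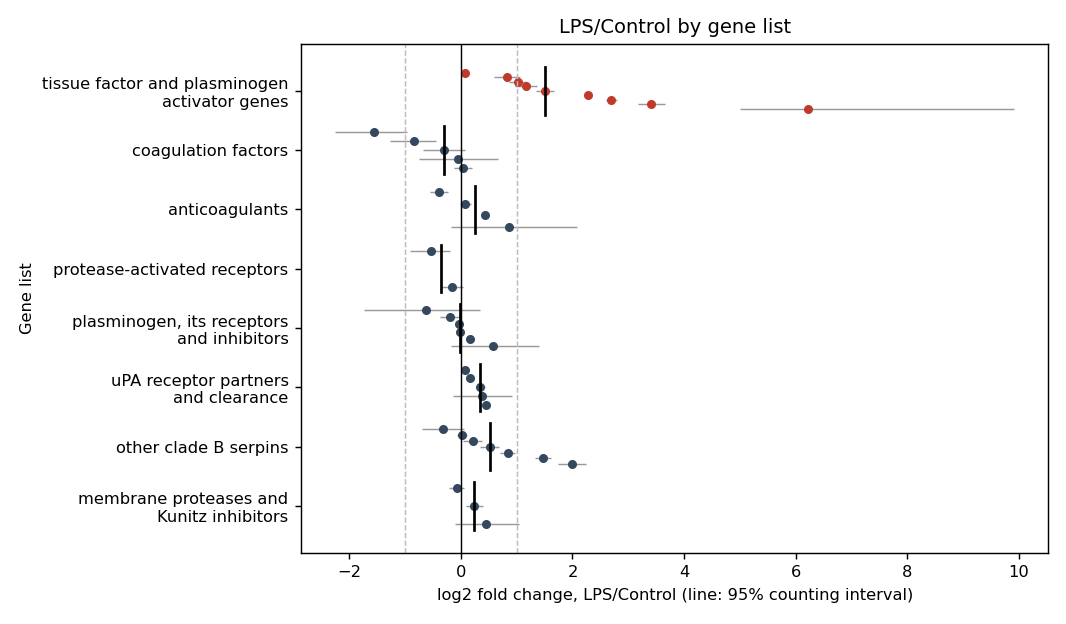
Log2 fold change in LPS/Control of the 9 genes (red) and of the genes in 7 wider lists (dark), with 1 point per gene that passed the rule on low values, grey lines for the 95% counting interval, black bars for the list median and dashed lines at 2-fold. The median of the 9 genes lies at 1.51, while the wider lists hold 3 genes past 2-fold, FGB on the lower side and SERPINB3 and SERPINB4 on the higher.

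For each of the 8 genes whose libraries spanned at least 2-fold, the genes with the most similar pattern were found as those at the smallest Euclidean distance over the log2 fold changes of the 3 LPS-treated libraries against Control, among 11438 genes whose mean normalized read count was 64 or more. Nearest to F3 were TWIST1 (distance 0.111) and GRAMD1A (0.125). Nearest to PLAU were NFKBIE (0.229), GCH1 (0.280) and GBP2 (0.285), and nearest to SERPINE2 were TNFRSF9 (0.204), ICAM1 (0.253) and AMIGO2 (0.274). SOCS3 (0.106), DLL1 (0.110) and EVA1C (0.118) lay nearest to TFPI2, and PSTPIP2 (0.0564), USP43 (0.0714) and PLK2 (0.140) to THBD. LOC284454 (0.103), TMC6 (0.111) and MUC1 (0.111) lay nearest to PLAUR. The read-through symbol RTEL1-TNFRSF6B (0.0752), TICAM1 (0.199) and EVA1C (0.202) lay nearest to PLAT, so EVA1C was near both PLAT and TFPI2. SERPINB2 had no neighbour as close, TNFAIP6, G0S2 and C15orf48 lying at 0.689, 0.894 and 0.962. With 3 values per gene that share 1 Control library, these distances describe the libraries only. The values of mut PDZ+LPS used for them carry the length trend, since the length correction was not applied.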

How the data were processed

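RNA from 4 libraries of BEAS-2B cells, 1 per condition, was poly(A) selected, prepared with a directional kit and sequenced as paired-end reads of 100 bases. The authors trimmed reads at a quality of Q20, mapped them with TopHat to hg19 (builds and tools per the submitters' processing notes) and deposited raw whole-number counts per gene symbol. The methods name FPKM and geometric normalization, but the deposited counts carry neither. The annotation, the counting tool and the strand setting are not given in the sources used here. No per-sample column was left out, and no row without a gene name was present.

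Groups came from the treatment labels. The 9 genes, the 7 wider lists and the markers were chosen with earlier results of these data known, so they are no independent support. Genes named were the 9, those of the wider lists that passed the rule on low values, overlapping, check and reference genes, and up to 3 nearest patterns per gene, of which 1 is not reported here. Size factors were geometric medians of ratios (DESeq2 1.42.0, R 4.3.3), the pseudocount was 1 normalized count, a call needed 16 normalized counts (4 on the log2 scale) and 2-fold, and intervals were exact Clopper-Pearson at 95% for 1 library against another, without molecular identifiers. With 24424 symbols listed, 13072 had a mean of at least 16. The length and GC correction subtracted lowess trends (span 0.3) over the longest coding transcript of GENCODE 29, available for 12119 of these genes, and per-kb levels used the same lengths. Promoters came from RefSeq (GRCh38.p14), so no hg19 coordinate is given. Alternatives were scaling by TMM (edgeR 4.0.16), by total count or by upper quartile, a pseudocount of 5, no rule on expression, a minimum of 64, folds of 1.5 and 3, and the correction. The steps were tested on simulated data in Python 3.11.15 with numpy 2.4.6, pandas 2.3.3, scipy 1.17.1 and statsmodels 0.14.6.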

Additional observations from a re-analysis of the deposited data

Results flagged for a closer look

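TFPI2 and PLAT were picked out because they lay on opposite sides of LPS with the 2 peptides, each by more than counting error. TFPI2 had a log2 fold change of -0.31 (-0.46 to -0.17, the 95% counting interval) for WT PDZ+LPS/LPS and 0.26 (0.12 to 0.40) for mut PDZ+LPS/LPS, with 0.23 once length and GC content were corrected for. PLAT had -0.35 (-0.53 to -0.18) and 0.26 (0.095 to 0.42), the latter at 0.20 when corrected. The reference genes spanned -0.071 to 0.16 in WT PDZ+LPS/LPS and -0.056 to 0.39 in mut PDZ+LPS/LPS. TFPI2 and PLAT lay below the first span but within the second, so their upper side does not stand apart from the reference genes. When corrected, the reference genes SDHA and PPIA had -0.18 and 0.31 in mut PDZ+LPS/LPS. Each value rests on 1 library per condition, both comparisons share the LPS library, and the difference between the peptides was not tested.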

How the results depend on the processing

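Of the counts of called genes recomputed under 9 alternatives, 84 stayed within 1.5 times their value and 24 did not, and no log2 fold change of a called gene changed sign. Among the 9 genes, a 3-fold threshold left 4 called in LPS/Control and 5 for mut PDZ against Control, and a 1.5-fold threshold gave 8 for WT PDZ against Control, 1 for mut PDZ against LPS (SERPINB2) and 1 for mut PDZ against WT PDZ (PLAT). Among the wider genes, no rule on expression gave 8 called in LPS/Control, 15 for WT PDZ and 11 for mut PDZ against Control, 8 for WT PDZ and 14 for mut PDZ against LPS, and 11 for mut PDZ against WT PDZ. A 1.5-fold threshold gave 7, 9, 10, 2, 7 and 8 in the same order. A 3-fold threshold left 1 in LPS/Control. For mut PDZ against LPS and against WT PDZ, the length and GC correction and the 3-fold threshold left 0 each, and a minimum of 64 left 1 each. Total-count scaling shifted the all-gene median against Control to between -0.13 and -0.11, and in LPS/Control TFPI2 lost its call under it (0.89), as it did under upper-quartile scaling (0.96). Looser and stricter rules change these counts by construction. The share of all genes called under these other rules is not given here, so the counts cannot be read as a result about the genes. The cause of the length trend was not tested. Under the 5 alternatives that can move a log2 fold change (scalings, pseudocount and correction), 238 values of the 9 genes lay within their counting interval and 32 did not. A pseudocount of 5 took SERPINB2 against Control to 4.95 (LPS), 5.47 (WT PDZ) and 5.55 (mut PDZ), each still called. With 1 library per condition no replicate could be left out. No paired analysis was possible because each condition had 1 library and no test was run. The depth limits SERPINB2 most, with 2 counts in Control.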
